A study of Mus musculus with 6 samples.

Results

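The insulin-like growth factor (IGF) axis was read in whole inguinal mammary glands as 10 genes named by symbol: the ligands Igf1 and Igf2, the receptors Igf1r and Insr, and the binding proteins Igfbp2 to Igfbp7. All 10 were found among the 22180 genes of the array, each read by 1 probe set. In the knockout group, named Dermo1Cre/Mt1-mmp(fl/fl) in the labels, a Cre recombinase driven from the Dermo1 locus, which is active in mesenchymal cells, targets floxed Mt1-mmp, the membrane-anchored matrix metalloproteinase gene now named Mmp14. The wild-type group carried Mt1-mmp(+/+) and, per the series' design text, came from the same litters. Both groups were C57BL/6J mice of 4 weeks, an age around the onset of puberty, with 3 glands per group and 1 array per gland. No group carrying Cre without the floxed allele was analysed here, so effects of Cre and of the loss of Mmp14 cannot be told apart.

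IGF1 and IGF2 are small secreted growth factors that signal through the IGF1 receptor and, with different affinities, the insulin receptor. In tissues most of the ligand is held by IGF binding proteins, which can shield it from the receptor or deliver it near the cell surface, and proteases that cut the binding proteins set it free. In the pubertal mammary gland, growth hormone acts on the stroma to raise local IGF1, which is needed for terminal end buds to form and for ducts to grow into the fat pad. The comparison asks how the transcripts of this axis differ in a gland whose stroma has lost Mmp14.

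Values are log2 signals, and a probe set's level is compared only with itself between arrays. Array medians over all probe sets lay between 3.77 and 3.78 in the knockout glands and between 3.85 and 3.89 in the wild-type glands. Mmp14 itself read 8.57, 8.55 and 8.75 in the knockout glands, against 11.18, 10.55 and 10.90 in the wild-type glands, so the arrays went with their labels. Whether its probes lie inside the floxed part was not known here. Twist2, the current name of Dermo1, differed by -0.47 ± 0.24 log2 units and did not pass (limma adjusted p = 0.277), and its groups overlapped. An effect of Cre on that locus was not tested. Of all genes, 12.2% passed the test (limma, Benjamini-Hochberg adjusted p under 0.05): 5.05% were higher and 7.2% lower in the knockout. Of the 10 IGF axis genes, 3 passed, 1 higher and 2 lower, and 5 passed without knockout 3. The 2 groups of arrays did not overlap for 2 IGF axis genes that were higher in the knockout and 3 that were lower, beside 17.2% and 15.4% of all genes (32.7% in either direction). The median difference of the 10 was 0.15 log2 units, beside 0.03 over all genes. The lowest 33% of genes lay under a mean level of 2.68, and no array of any of the 10 genes read below it.

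The 2 binding protein genes that fell were Igfbp2 and Igfbp6, and Insr was the gene that rose. The sequences upstream of Igfbp2 and Igfbp6 are shown because these genes gave the largest differences of the family. They are the 250 bases before the annotated start in RefSeq, assembly GRCm38.p6, read 5′ to 3′ on the gene's strand. The Igfbp2 window is chr1:72824230-72824479 on the plus strand and the Igfbp6 window is chr15:102143936-102144185 on the plus strand. Capitals mark matches on either strand to TATAAA (the TATA box), GGGCGG (the GC box bound by SP1), CACGTG (an E-box) and GGAATG (the core bound by TEAD factors). The motifs did not overlap one another in these windows.
Igfbp2: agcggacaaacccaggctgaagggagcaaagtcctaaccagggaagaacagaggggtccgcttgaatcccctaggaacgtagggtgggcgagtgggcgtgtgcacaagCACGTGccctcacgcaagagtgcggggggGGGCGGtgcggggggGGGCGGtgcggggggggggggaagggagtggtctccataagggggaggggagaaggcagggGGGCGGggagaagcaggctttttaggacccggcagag
Igfbp6: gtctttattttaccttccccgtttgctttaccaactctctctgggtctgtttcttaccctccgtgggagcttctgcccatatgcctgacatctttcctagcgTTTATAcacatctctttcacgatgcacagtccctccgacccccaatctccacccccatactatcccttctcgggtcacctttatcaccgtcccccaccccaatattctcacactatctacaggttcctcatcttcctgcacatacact

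The windows were unlike each other. Igfbp2 held 3 copies of GGGCGG and 1 of CACGTG in a window of 67.2% G and C, whereas Igfbp6 held 1 TATAAA on the opposite strand in a window of 49.6% G and C. Of 32851 RefSeq windows of the same length, 32.7% held GGGCGG, 6.02% CACGTG, 12.4% TATAAA and 12.6% GGAATG, and the median G and C content was 52.4%. A further annotated start of Igfbp2, at which the window is chr1:72825137-72825386, held 0 matches to the 4 motifs. RefSeq windows were matched for 9 of the 10 genes, and Insr was the gene not matched. A match describes letters only and was not tested as a binding site.

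Igf1, the main local growth factor of the gland, read 9.62, 9.49 and 9.44 in the knockout glands, against 9.20, 9.42 and 9.37 in the wild-type glands. The knockout arrays all lay above the wild-type arrays, by a gap of 0.025 log2 units, smaller than the range within either group. Igf1 differed by 0.18 ± 0.12 log2 units (SE, n = 3 per group), which did not pass (limma adjusted p = 0.379), and the 95% interval of the difference reached from -0.09 to 0.46. It was 0.12 without wild type 1. Igf2, the fetal growth factor that is imprinted and expressed from the paternal copy, read 5.98, 5.52 and 5.44 in the knockout glands, against 5.33, 5.50 and 5.21 in the wild-type glands. The groups overlapped, with knockout 1 standing above the other 5 arrays. The Igf2 difference was 0.30 ± 0.17 (adjusted p = 0.312; 95% interval -0.09 to 0.69), and it was 0.13 without knockout 1.

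The receptors divided. Insr, the insulin receptor, which can also bind IGF2 in one of its isoforms, read 9.18, 9.13 and 9.06 in the knockout glands, against 8.56, 8.44 and 8.52 in the wild-type glands. The groups were well apart and each was tight, with SDs of 0.06 in the knockout and 0.06 in wild type. Insr rose by 0.61 ± 0.11 log2 units, to 153% of the wild-type level (adjusted p = 0.0106). Of the genes that rose, 764 rose further. Igf1r, the receptor of IGF1, read 7.80, 7.47 and 7.56 in the knockout glands, against 7.59, 7.51 and 7.58 in the wild-type glands. These values interleave, and Igf1r differed by 0.05 ± 0.13 (adjusted p = 0.850; 95% interval -0.24 to 0.34). Whether Insr and Igf1r differ from each other in their response was not tested.

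**Figure D1:**
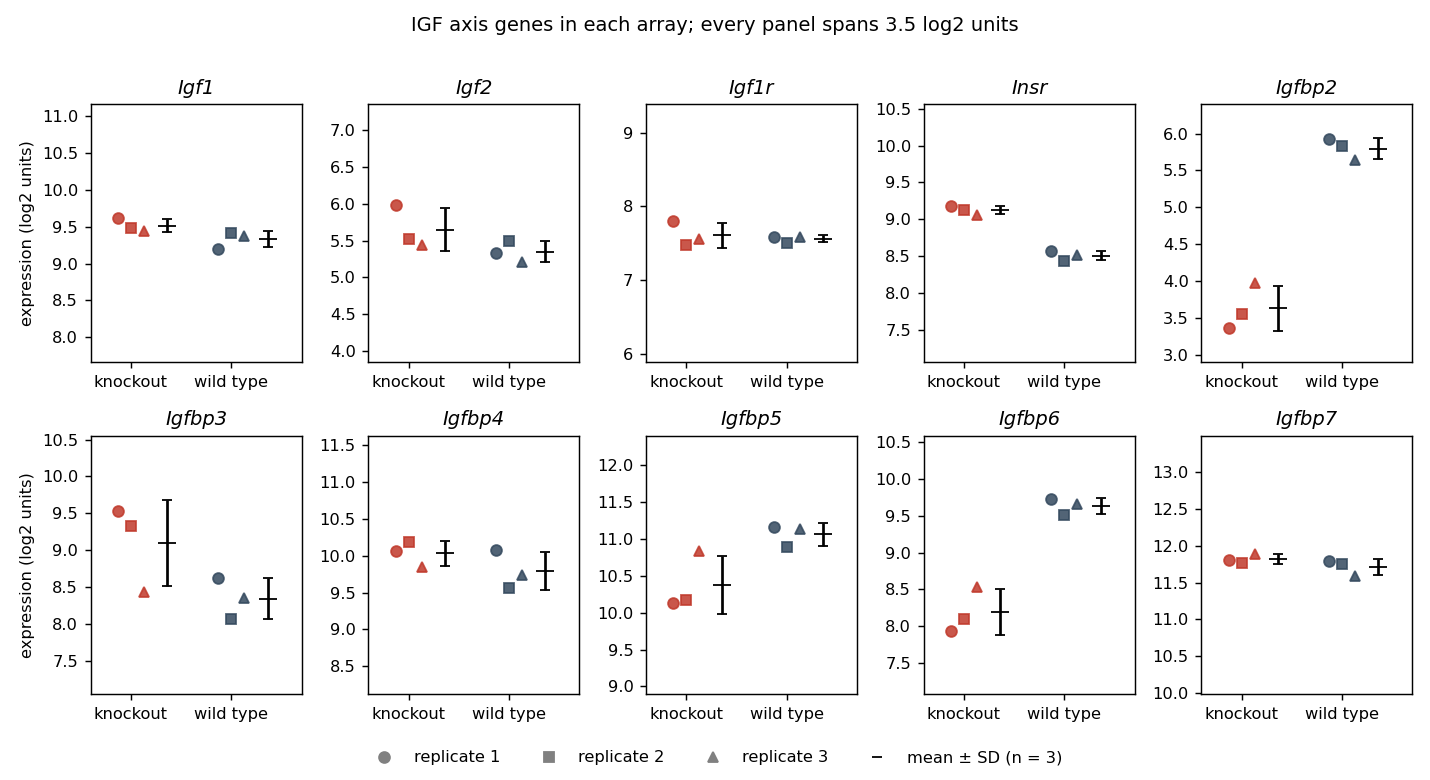
Log2 expression of the 10 IGF axis genes in each array, with the knockout glands (red) left of the wild-type glands (dark blue) and the mean ± SD of each group beside its points (n = 3). All panels span the same number of log2 units, so the drop of Igfbp2 and Igfbp6, the narrow step of Insr and the spread of Igfbp3 and Igfbp5 among knockout glands can be compared by eye.

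Igfbp2, a binding protein that holds IGF2 more tightly than IGF1, had the largest difference of the 10 genes. It read 3.37, 3.55 and 3.97 in the knockout glands, against 5.92, 5.82 and 5.64 in the wild-type glands. A gap of 1.67 log2 units separated the highest knockout array from the lowest wild-type array. Igfbp2 fell by 2.17 ± 0.17 log2 units, to 22.2% of the wild-type level (adjusted p = 0.000569). Only 102 of the 1596 genes that fell did so by more.

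Igfbp6, which also prefers IGF2 and restrains its action, read 7.94, 8.10 and 8.53 in the knockout glands, against 9.73, 9.51 and 9.66 in the wild-type glands. The groups did not overlap, and the knockout glands spanned 0.60 log2 units where the wild-type glands spanned 0.21. The knockout level was 36.8% of the wild-type level (adjusted p = 0.00227; 95% interval of the difference -1.83 to -1.05), and 297 genes fell further.

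Igfbp5, a matrix-binding family member known from the involuting mammary gland, read 10.13, 10.17 and 10.84 in the knockout glands, against 11.17, 10.89 and 11.13 in the wild-type glands. Knockout 1 and knockout 2 lay near each other, while knockout 3 lay 0.05 log2 units under the lowest wild-type array. The difference was -0.68 ± 0.20, or 62.3% of the wild-type level, and did not pass (adjusted p = 0.0690; 95% interval -1.15 to -0.21). Without knockout 3 it was -0.91 and passed (adjusted p = 0.0118). It also passed with an intensity trend (adjusted p = 0.0208), a robust trend (adjusted p = 0.0255) and array weights (adjusted p = 0.0413). Igfbp5 is the next protein-coding gene to Igfbp2 in the RefSeq order of GRCm38.p6, so the neighbouring pair had differences of the same sign and unequal size.

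Igfbp3, the main carrier of IGFs in serum, had a difference of the opposite sign. It read 9.53, 9.33 and 8.44 in the knockout glands, against 8.62, 8.06 and 8.34 in the wild-type glands. Knockout 1 and knockout 2 were above all wild-type arrays, and knockout 3 lay among them. The difference was 0.76 ± 0.29 log2 units and did not pass (adjusted p = 0.138; 95% interval 0.10 to 1.42). Without knockout 3 it was 1.09 and passed (adjusted p = 0.0167). Igfbp1, the protein-coding neighbour of Igfbp3 in the RefSeq order and a binding protein best known from liver, read between 2.27 and 2.60 in the knockout glands and between 2.26 and 3.52 in the wild-type glands, mostly under the level of 2.68.

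Igfbp4, an inhibitor of IGF action that the protease PAPP-A cuts, read 10.07, 10.19 and 9.85 in the knockout glands, against 10.07, 9.57 and 9.73 in the wild-type glands. The groups overlapped, since wild type 1 lay as high as knockout 1, and the difference was 0.25 ± 0.16 (adjusted p = 0.395; 95% interval -0.13 to 0.62). It was 0.13 without wild type 2 and 0.39 without wild type 1. Igfbp7, a low-affinity relative secreted by vessels and stroma, read 11.81, 11.76 and 11.89 in the knockout glands, against 11.79, 11.75 and 11.59 in the wild-type glands. It showed the smallest difference among the binding proteins, 0.11 ± 0.11 (adjusted p = 0.602; 95% interval -0.16 to 0.37), which was 0.05 without wild type 3. Among the 6 binding protein genes, then, 2 fell and 0 rose, beside 7.2% lower and 5.05% higher of all genes. The other 4 did not pass, though Igfbp3 and Igfbp5 did so without knockout 3.

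Knockout 3 lay nearest to the wild-type mean among the knockout glands for 9 of the 10 genes, including all 3 that passed; the exception was Igfbp7. The same gland was the nearest for 49.0% of all genes that passed and for 37.5% of all genes. It also had the highest Mmp14 of the knockout glands, 8.75 against 8.57 and 8.55, and a link between the 2 was not tested. Its place varied among the summed marker levels given below. For luminal markers it was nearest to wild type (9.63, against 9.21 and 9.24 in knockout 1 and 2). The same held for fibroblast markers (14.10, against 13.95 and 13.97) and macrophage markers (11.66, against 11.57 and 11.54). For basal markers knockout 3 read 7.12, between knockout 1 (7.30) and knockout 2 (6.93). For endothelial markers knockout 3 was farthest from wild type (12.48, against 12.04 and 12.21), as for thermogenic adipocyte markers (12.34, against 11.77 and 11.77).

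**Figure D2:**
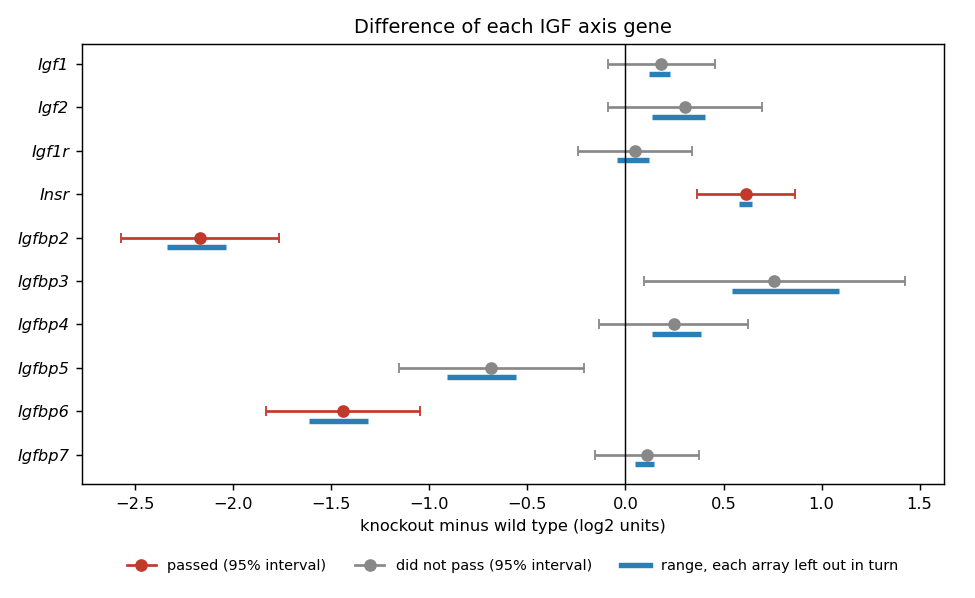
Knockout minus wild type for each IGF axis gene in log2 units (points) with the 95% interval of the limma fit, in red where the gene passed and grey where it did not; the blue bar beneath is the range of the difference as each array is left out in turn. The intervals of Igfbp2, Igfbp6, Insr, Igfbp5 and Igfbp3 exclude 0 before adjustment, and after adjustment over all genes Insr, Igfbp2 and Igfbp6 passed.

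Around these genes, 59 of 68 further pathway genes were measured, of which 3 rose and 9 fell, 20.3% of them beside 12.2% of all genes, with a median difference of -0.05. In place of these 12, 5 passed without knockout 1 and 6 without knockout 2, wild type 1 or wild type 3. The pathway lists were chosen with earlier results of these data known. Their shares beside those of all genes, here and below, therefore describe the lists and do not test for an excess. Among 6 other ligands, receptors and carriers, 0 passed (limma; 0 had an unadjusted p under 0.05). Igfals, the acid-labile subunit that joins IGFBP3 and IGF in serum, differed by 0.30 ± 0.16 (adjusted p = 0.273), or by 0.18 without wild type 1. Both insulin-related genes in this group that were measured, Ins2 and Insrr, lay under 2.68 in the mean of either group.

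Of 8 genes for binding protein proteases and their inhibitors, 3 fell and 0 rose (37.5% lower, beside 7.2% of all genes). Pappa, which encodes the protease that cuts IGFBP4 and IGFBP5 to release IGF, read 4.56, 4.41 and 4.22 in the knockout glands, against 5.52, 5.36 and 5.23 in the wild-type glands. Pappa fell to 50.9% of the wild-type level (adjusted p = 0.00477). Stc2, a secreted inhibitor of that protease, read 6.28, 6.01 and 6.12 in the knockout glands, against 7.34, 7.47 and 7.29 in the wild-type glands. Stc2 fell by 1.23 ± 0.12 log2 units, to 42.6% (adjusted p = 0.00120), so transcripts of the protease and of its inhibitor were both lower. Htra1, a secreted serine protease whose substrates include IGFBP5, read 7.23, 7.67 and 8.03 in the knockout glands, against 8.84, 8.33 and 8.67 in the wild-type glands (adjusted p = 0.0279). The call of Htra1 was lost without wild type 1 or 3 or without knockout 1 or 2 (adjusted p 0.0622 to 0.0999). Pappa2, a related protease, differed by 0.29 ± 0.14 (adjusted p = 0.243).

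Of 10 genes of growth hormone input, 5 fell and 0 rose (50.0% lower, beside 7.2% of all genes), with a median difference of -0.44. The list holds transcripts only, and growth hormone signalling itself was not measured. Ghr, the growth hormone receptor, differed by 0.31 ± 0.12 and did not pass (limma adjusted p = 0.148), though every knockout array lay above the wild-type arrays. The 3 feedback inhibitors that fell belong to the suppressor of cytokine signalling family, and Cish, another measured member, differed by 0.37 ± 0.40 and did not pass (adjusted p = 0.619). Socs2, the member most closely tied to growth hormone, read 7.28, 6.78 and 6.72 in the knockout glands, against 7.79, 8.02 and 7.65 in the wild-type glands (53.9% of wild type, adjusted p = 0.0183). Socs1 fell to 61.0% of wild type (adjusted p = 0.00972) and Socs3 to 57.1% (adjusted p = 0.0112). Both were weak signals, not far above the level of 2.68. Socs1 read 2.94, 3.05 and 2.99 in the knockout glands, against 3.69, 3.87 and 3.57 in the wild-type glands. Socs3 read 3.57, 3.14 and 3.40, against 4.06, 4.29 and 4.18. Socs3 did not pass when its 2 probe sets were averaged, at -0.35 (adjusted p = 0.105). The kinase Jak2, which the growth hormone receptor uses, fell by 0.64 ± 0.14 (adjusted p = 0.0233), and its target, the transcription factor gene Stat5a, by 0.58 ± 0.14 (adjusted p = 0.0305). Leaving out 1 array ended the call of Stat5a for 5 of the 6 arrays, all but knockout 2 (adjusted p 0.0681 to 0.0963 across those 5), of Jak2 for knockout 1, knockout 2, wild type 2 or wild type 3 (0.0642 to 0.0770), and of Socs2 for knockout 2, knockout 3, wild type 1 or wild type 2 (0.0509 to 0.0681).

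Below the receptors, 33 signalling genes were measured, of which 3 rose and 1 fell, 12.1% of them, near the 12.2% of all genes. Sh2b2, an adaptor recruited to the active insulin receptor, read 9.08, 9.20 and 8.38 in the knockout glands, against 8.11, 7.34 and 7.62 in the wild-type glands, and rose by 1.19 ± 0.26 (adjusted p = 0.0252). Irs2, a docking protein of both receptors, rose to 151% of wild type (adjusted p = 0.0244), as did Eif4ebp1, a repressor of translation that mTOR inactivates (151%, adjusted p = 0.0193). Pik3cd, the catalytic subunit of phosphoinositide 3-kinase found mostly in leukocytes, fell by 0.56 ± 0.12 (adjusted p = 0.0238). Each of these 4 calls was lost without at least 4 of the 6 single arrays: Sh2b2 without knockout 1 or 2 or wild type 2 or 3, Irs2 without any array but wild type 3, Eif4ebp1 without knockout 1 or 2 or wild type 1 or 3, and Pik3cd without knockout 1 or 3 or wild type 1 or 3 (adjusted p 0.0554 to 0.0847). Of the 33, the groups of arrays did not overlap for 11 genes that were higher and 5 that were lower in the knockout. The shares over all genes were 17.2% and 15.4%. The docking protein Irs1 differed by 0.01 ± 0.16 and the kinase Akt1 by -0.09 ± 0.16. Of the 2 measured partners of the Igf2 transcript, 0 passed (limma; 0 with an unadjusted p under 0.05): the RNA-binding protein Igf2bp3 differed by 0.17 ± 0.13 (0.08 without knockout 2) and Plagl1, an imprinted transcription factor, by -0.06 ± 0.18.

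**Figure D3:**
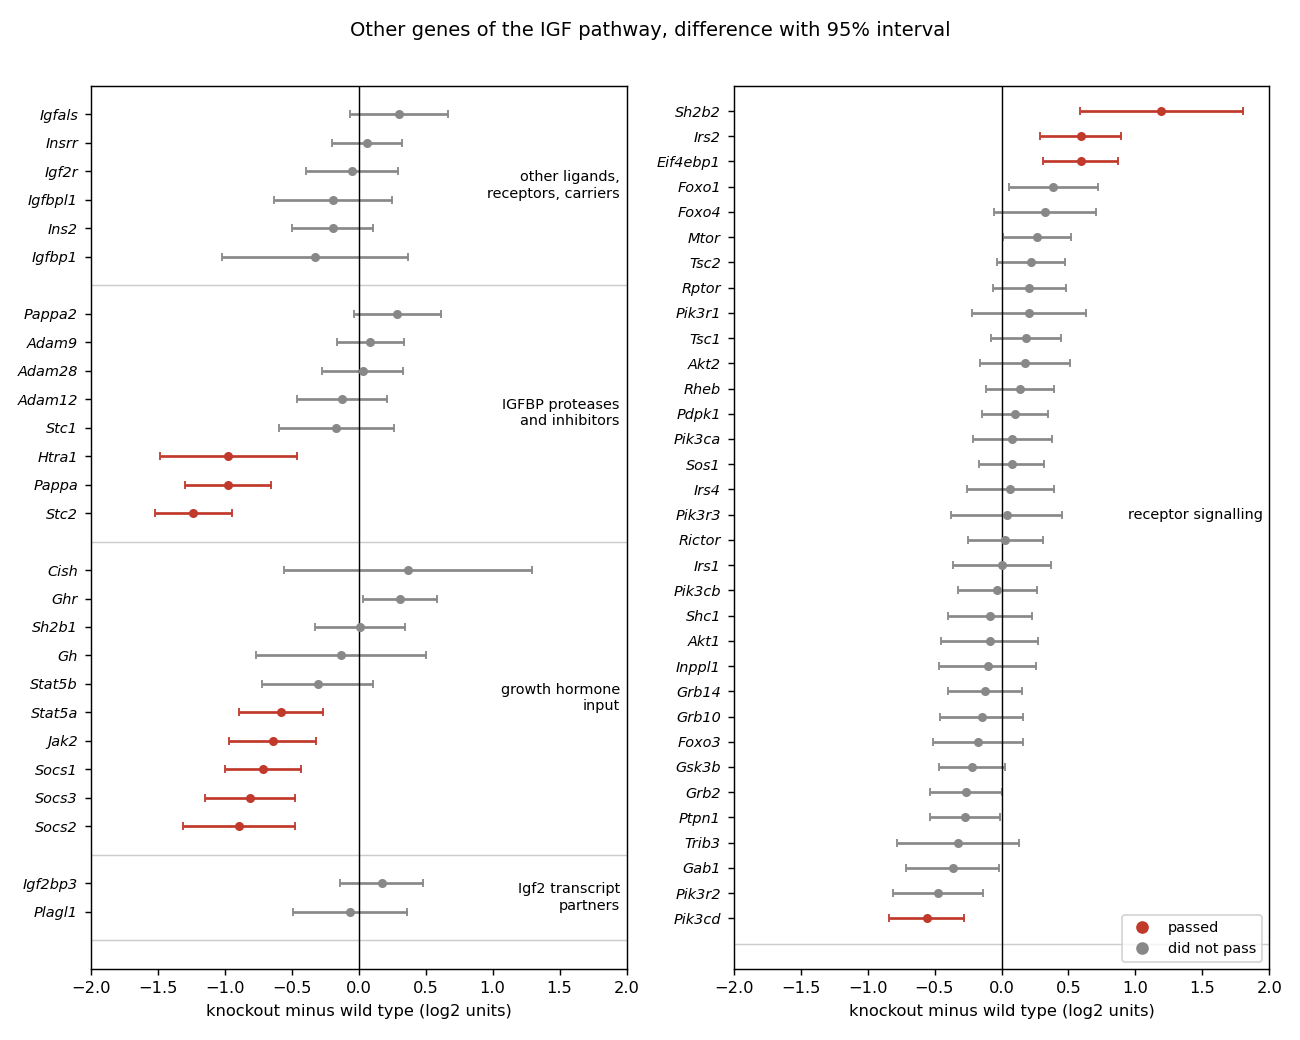
Knockout minus wild type in log2 units, with 95% intervals, for 59 other genes of the IGF pathway; red genes passed. Falls lie in the protease and growth hormone groups on the left, and among the signalling genes on the right Sh2b2, Irs2 and Eif4ebp1 rose and Pik3cd fell.

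The gland is a mixture, and markers of several of its cell types moved with these results. In whole tissue, fewer cells of a type and less RNA per cell cannot be told apart. Over all genes, 7.2% were lower and 5.05% higher, to be set beside each count here. All 9 luminal epithelial markers fell. Their summed level (log2 of the summed signals) was 9.21 to 9.63 in the knockout glands, against 11.49 to 11.71 in the wild-type glands. Of 6 basal markers 5 fell (6.93 to 7.30, against 8.43 to 9.02), and Krt14, a defining basal keratin, lay under 2.68 in the knockout mean; epithelial markers otherwise lay above that level in both group means. Of 10 fibroblast markers 4 fell (13.95 to 14.10, against 14.33 to 14.61), and of 8 macrophage markers 4 fell (11.54 to 11.66, against 12.02 to 12.39). Of 8 endothelial markers 2 rose, 25% of them (12.04 to 12.48, against 11.85 to 11.87). Their signs differed: the median difference was 0.43, while Emcn differed by -0.32 and Tek by -0.09, and neither passed. Of 6 thermogenic adipocyte markers 4 rose (11.77 to 12.34, against 8.64 to 10.61), while Dio2 differed by -0.65 and did not pass. Of 7 white adipocyte markers 1 rose, 14.3% of them beside 12.2% of all genes (14.69 to 14.77, against 14.56 to 14.59). Their part in the differences of Igfbp2, Igfbp6, Insr and the pathway genes was not tested.

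Of 7 pericyte and smooth muscle markers 2 rose and 1 fell, 42.9% of them beside 12.2% of all genes. Their summed level was 11.98 to 12.29 in the knockout, against 12.28 to 12.42 in wild type. Single genes differed in sign: the median difference of the 7 was 0.42 log2 units, Kcnj8 and Abcc9 rose, and the bright smooth muscle gene Acta2 fell by 0.77. Of 8 skeletal muscle markers 0 passed (limma; 1 had an unadjusted p under 0.05), at 6.64 to 6.79 in the knockout glands, against 6.51 to 10.03 in the wild-type glands, where wild type 1 was the highest. Without wild type 1, Igfbp2, Igfbp6 and Insr still passed. Of the wild-type glands then left, wild type 2 lay above the knockout glands in muscle markers (7.39) and wild type 3 below them (6.51). The part of muscle tissue in the differences of these genes was not tested. Of 6 lymphocyte markers 0 passed (limma, 1 with an unadjusted p under 0.05), at 6.69 to 7.03 in the knockout glands, against 6.74 to 7.39. Of 3 Schwann cell markers 1 fell, beside 7.2% lower of all genes (10.04 to 10.23, against 10.07 to 10.34).

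**Figure D4:**
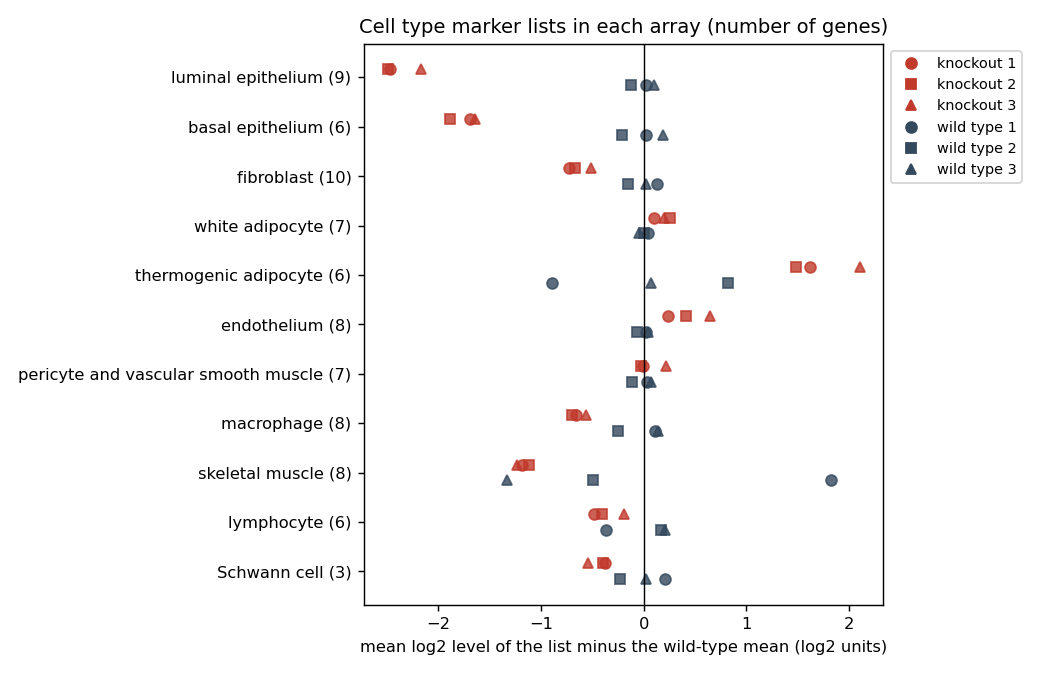
Mean log2 level of each cell type marker list in each array, relative to the wild-type mean, with knockout glands in red above wild-type glands in dark blue and the number of genes in brackets. Luminal and basal lists lie lowest in the knockout, thermogenic adipocyte genes highest, and wild type 1 stands out in skeletal muscle genes.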

How the data were processed

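Total RNA from whole glands (400 ng per sample) was hybridised to Affymetrix whole-transcript arrays, per the labels' protocols. The deposited log2 values were made by the authors with RMA, and limma is also named, per the submitters' processing notes, with no version. The log base is not written in the table and was taken as 2. Of 41345 probe sets, 23521 carry 1 symbol in the platform annotation; where a symbol had several, the brightest on average was used, giving 22180 genes. Groups were compared with limma 3.58.1 in R 4.3.3 (lmFit, eBayes, no trend), with Benjamini-Hochberg adjustment over all genes. Standard errors and 95% intervals come from that fit, and the number of arrays limits their precision. Exact two-sided permutation tests of 3 against 3 arrays cannot go below 0.1, which Insr, Igfbp2, Igfbp6, Igfbp5 and Igf1 reached.

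The members and gene lists were chosen with earlier results of these data known. All members are named, and per pathway list up to 6 genes that passed, by size, or the 2 largest differences where fewer than 2 passed. Ghr, Cish, Pappa2, Irs1, Akt1, Ins2 and Insrr were added after their values were seen. The alternatives were a filter on low genes, an intensity or robust trend, array weights, repeated quantile normalization, median centring, averaged or all probe sets, the replicate number as a block, and each array left out. In simulated data for this comparison over 22180 genes, 62 genes were changed by 0.5 log2 units, 70 by 1 unit and 68 by 2 units. The fit recovered 4.84%, 64.3% and 89.7% of them, with 4 false calls among 21980 unchanged genes. The changed share was far below the 12.2% of genes that passed in the real data. Adjusted p-values depend on that share, so these rates do not carry over directly to the real comparison.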

Additional observations from a re-analysis of the deposited data

How the results depend on the processing

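Insr, Igfbp2 and Igfbp6 passed in the same direction in all 15 alternative fits (adjusted p at most 0.0449, 0.00561 and 0.0155), and Igf1, Igf2, Igf1r, Igfbp4 and Igfbp7 passed in none. The count of IGF axis genes that passed was 3 to 5 with 1 array left out, the highest without knockout 3. The count of pathway genes was 5 to 8 with 1 array left out, and 4, all lower, with every probe set tested, against 12. Over all genes, 1490 (without wild type 1) to 2304 (without knockout 3) passed with 1 array left out and 1647 with every probe set tested, against 2717. With arrays centred on their medians, which were lower in every knockout gland than in any wild-type gland, 1768 genes were higher and 1333 lower, against 1121 and 1596. Same-numbered samples did not deviate together (correlations -0.05 to -0.03), so the numbers were not read as pairs. With the replicate block 1923 genes, 3 IGF axis genes and 9 pathway genes passed, and Irs2, Pik3cd and Stat5a lost their calls (adjusted p = 0.05001, 0.0729 and 0.0677). The differences of Igf1r, Igfbp1 and Plagl1, which passed in no setting, changed sign: with 1 array left out, Igf1r ran from -0.045 to 0.12, Igfbp1 from -0.59 to 0.044 and Plagl1 from -0.17 to 0.12, and Plagl1 was 0.025 with median centring and 0.019 with averaged probe sets. The cause of these shifts was not tested. Changes of 0.5 log2 units were mostly missed in simulated data of this size, a rate that does not carry over directly to the real comparison.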
